A study of Mus musculus with 8 samples.

Results

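Oncostatin M (gene Osm) and leukaemia inhibitory factor (gene Lif) are cytokines that signal through receptors built around a shared chain, gp130 (gene Il6st). Described here are the 6 genes Osm, Lif, Il6st, Lifr, Osmr and Il31ra, of 6986 genes with 1 symbol each in the value table. They were chosen by name, and each was read by 1 probe set (a group of array probes for 1 transcript).

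Expression was measured on 8 Affymetrix Mouse Gene 2.0 ST arrays, 4 labelled IL10-/- and 4 labelled IL10+/+. Each array held RNA of sorted CD4+CD25+ lymphocytes, a fraction rich in regulatory T cells (Treg). The cells came from lymph nodes that drain the uterus (para-aortic nodes) at day 9.5 of pregnancy, and each array held a pool from 2 to 4 mice. The IL10+/+ mice were C57BL/6. The IL10-/- mice lack a working gene for interleukin 10 in all cells, were backcrossed to C57BL/6, and were given oxytetracycline in their drinking water at 2 mg/ml against colitis. The labels give no antibiotic for IL10+/+ mice, so genotype and antibiotic cannot be told apart. The arrays were pools of sorted cells, so fewer cells expressing a gene and less RNA of it per cell cannot be told apart either.

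Cytokines of the gp130 family bind a chain of their own, or a shared one, and bring it together with gp130. LIF uses the LIF receptor chain (gene Lifr) with gp130, and oncostatin M uses the oncostatin M receptor chain (gene Osmr) with gp130. Interleukin 31 instead pairs the OSMR chain with IL31RA, a relative of gp130. The joined chains activate Janus kinases and then STAT3, and SOCS3 shuts the signal down by binding gp130. In pregnancy, LIF made by the uterus is needed for the embryo to implant. In T cells, interleukin 6 signalling through gp130 favours Th17 cells over Treg, and LIF has been described as acting in the opposite direction. Oncostatin M is made by activated T cells and myeloid cells.

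The 6 genes form 3 pairs of neighbours in the RefSeq gene order of assembly GRCm38.p6. Osm and Lif lie side by side on chromosome 11, Il6st and Il31ra on chromosome 13, and Lifr and Osmr on chromosome 15. In each pair 0 other protein-coding genes lie between.

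Promoters are shown for the chain whose level moved with Osm over the pools, Il6st, and for the 2 genes with a match to a searched motif, Lif and Il31ra. The RefSeq promoter table of build GRCm38.p6 matched 5 of the 6 genes, in 6 windows, as Lifr has 2 start sites. The 250 bases before each start were searched on both strands for TTCNNNGAA, the palindrome that STAT factors bind, TGANTCA, the AP-1 palindrome, and TATAAA, the TATA box. The 3 motifs share no bases in a match shown here. Matches are in capitals, and the sequences run 5′ to 3′ on the strand of the gene, at chr13:112463820-112464069 (+ strand) for Il6st, chr11:4257318-4257567 (+ strand) for Lif and chr13:112580733-112580912 (- strand) for Il31ra. For Il31ra the table's start lies 70 bases inside the RefSeq gene, so only the 180 bases of its window that lie outside the gene are printed.
Il6st: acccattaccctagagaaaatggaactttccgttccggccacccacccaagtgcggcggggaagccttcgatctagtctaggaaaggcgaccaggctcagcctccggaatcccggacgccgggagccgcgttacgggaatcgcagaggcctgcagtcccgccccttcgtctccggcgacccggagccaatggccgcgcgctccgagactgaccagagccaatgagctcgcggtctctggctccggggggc
Lif: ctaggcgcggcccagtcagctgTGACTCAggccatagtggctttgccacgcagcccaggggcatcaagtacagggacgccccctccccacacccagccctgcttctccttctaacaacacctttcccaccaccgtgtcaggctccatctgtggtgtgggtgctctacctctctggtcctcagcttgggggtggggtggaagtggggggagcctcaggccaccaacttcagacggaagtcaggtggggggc
Il31ra: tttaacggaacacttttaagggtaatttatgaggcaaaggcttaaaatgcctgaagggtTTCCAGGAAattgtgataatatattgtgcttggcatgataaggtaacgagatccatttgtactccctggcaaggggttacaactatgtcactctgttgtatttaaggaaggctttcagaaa
The Il31ra window held the 1 match to the STAT palindrome, 191 bases before the table's start, and Lif the 1 match to the AP-1 palindrome, 228 bases before the start. The windows of Il6st, Osmr and Lifr held none of the 3 motifs. Over all 32851 windows of that length, 7.02% held the STAT palindrome, 6.75% the AP-1 palindrome and 12.4% TATAAA. The Il6st window was 66.0% G and C with 26 CG pairs, and that of Lif 63.6% with 6, against medians of 52.4% and 6 over all windows. The full Il31ra window of 250 bases, at 42.0% with 4 CG pairs, lay below both medians. A match, or the lack of one, describes these letters only, and binding sites that differ from the 3 searched motifs were not looked for.

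The labels and the array quality were checked first. Il10, the targeted gene, read 9.35, 8.65, 9.42 and 9.25 (log2) in IL10-/- replicates 1 to 4 and 8.27, 8.51, 8.14 and 7.50 in IL10+/+ replicates 1 to 4. Its signal was thus stronger under the label of the mutant. Which part of the gene was mutated is not stated in the labels. A probe set that reads another part would check no label, and every direction here rests on the labels. Replicate 2 of IL10-/- and replicate 4 of IL10+/+ had a narrower spread of values than the other arrays. Their interquartile ranges over all genes were 2.15 and 2.17, against 2.32 to 2.58 in the other 6. These arrays also stood apart on the first principal component, with scores of 16.6 and 17.8 against -13.3 to -2.72 in the others. The T cell identity of the fraction could be checked on 4 of 12 listed T cell markers and 4 of 12 listed Treg markers. Ptprc, the leukocyte phosphatase CD45, read 12.61 ± 0.09 in IL10-/- and 12.70 ± 0.05 in IL10+/+ (SD, n = 4 each). Ctla4, an inhibitory receptor of Treg, read 11.21 ± 0.23 and 11.32 ± 0.15, and Ikzf2, the Treg transcription factor Helios, read 11.35 ± 0.15 and 11.54 ± 0.15. The other measured Treg markers, Il10 itself and Socs2, were higher in IL10-/-, by 1.06 and 0.56 (log2). Neither passed the test of the whole table. The groups did not overlap for Il10 but overlapped for Socs2, and over all genes 2.92% did not overlap. The median difference of the 4 Treg markers, the targeted gene Il10 included, was 0.23. The T cell signalling genes Themis, Cd28 and Zap70 differed by 0.21, -0.098 and -0.15 between IL10-/- and IL10+/+ (log2), none past the test of the whole table. Foxp3, Cd4, Cd3e and Il2ra were not analysed here, and how many cells of a pool were Foxp3+ was not measured.

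None of the 6 genes changed between the genotypes by limma, a linear model per gene with variance shared across genes, at an adjusted p under 0.05. Of the genes tested, 0.0286% passed (2 of 6986), which were Ctse and Efcab2, both higher in IL10-/-. At an unadjusted p under 0.05, limma counted 0 of the 6 genes, against 4.78% of all genes. The groups overlapped for all 6 genes, and did not overlap for 2.92% of all genes. Of the 6 differences (IL10-/- minus IL10+/+, log2), 5 were negative and 1 was positive, with a median of -0.071. Over all genes 49.2% of differences were negative and the median was 0.0025.

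**Figure D1:**
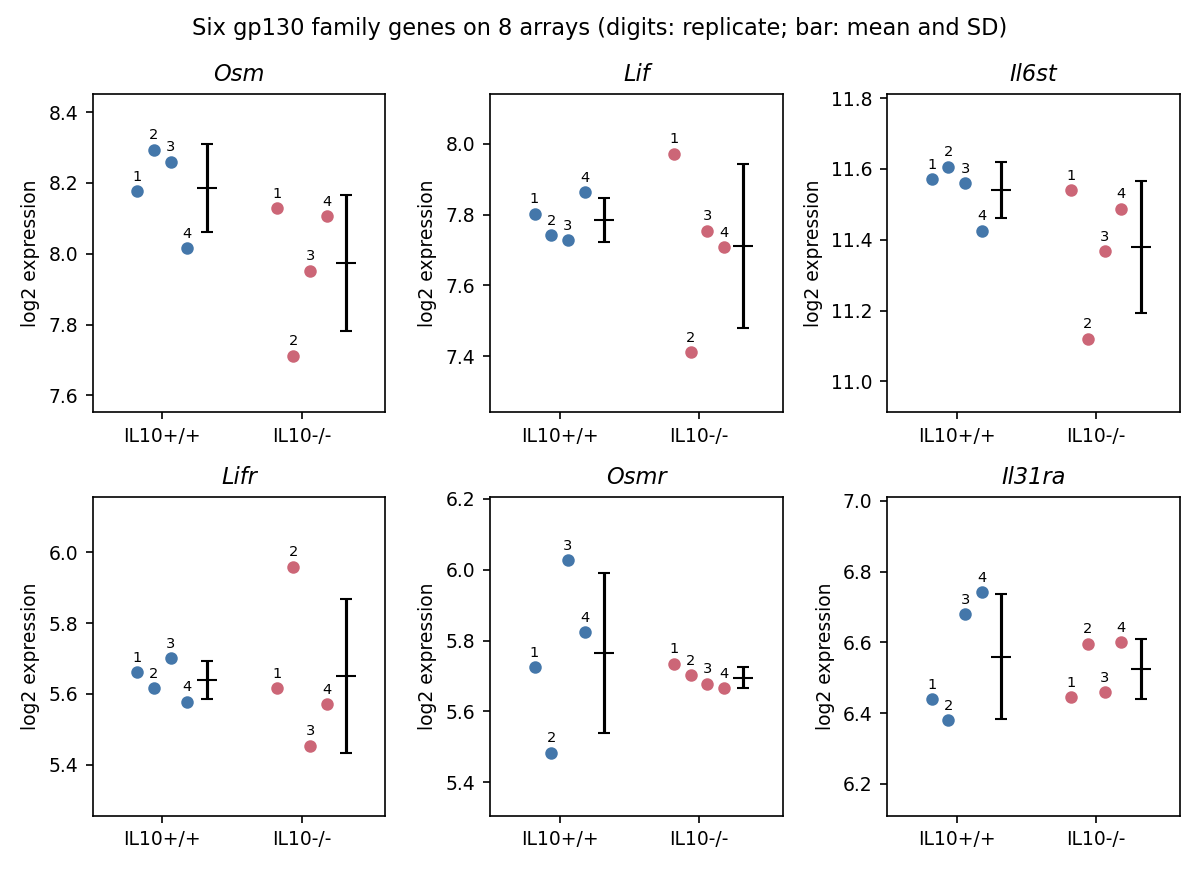
Log2 expression of Osm, Lif, Il6st, Lifr, Osmr and Il31ra in the 4 IL10+/+ arrays (blue) and the 4 IL10-/- arrays (red), with the replicate number above each point and the mean and SD beside each group; every panel spans the same range of log2 values. The groups overlap in each panel, and IL10-/- replicate 2 is lowest for Osm, Lif and Il6st and highest for Lifr.

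Of the ligands, Osm had the largest difference of the 6 genes. It read 8.13, 7.71, 7.95 and 8.11 in IL10-/- replicates 1 to 4 and 8.18, 8.29, 8.26 and 8.02 in IL10+/+ replicates 1 to 4. Of the IL10+/+ arrays, 3 lay above every IL10-/- array, and replicate 4 lay among them. The means were 7.97 ± 0.19 and 8.19 ± 0.12 (SD, n = 4 each). The log2 difference was -0.21 (SE 0.12, 95% interval -0.48 to 0.053), that is 1.16-fold lower, and it did not pass limma's test (unadjusted p = 0.106, adjusted p = 0.999). A two-sided exact permutation test over the 70 ways to assign the arrays gave p = 0.114, where 0.0286 is the smallest possible. Without IL10-/- replicate 2, its lowest array, the difference was -0.12.

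Lif differed less than Osm. It read 7.97, 7.41, 7.75 and 7.71 in IL10-/- replicates 1 to 4 and 7.80, 7.74, 7.73 and 7.86 in IL10+/+ replicates 1 to 4. The highest and the lowest of the 8 values both fell in IL10-/-, and the IL10+/+ arrays lay between them. The means were 7.71 ± 0.23 and 7.78 ± 0.06 (SD, n = 4 each). The log2 difference of -0.072 (SE 0.12, 95% interval -0.34 to 0.20) was smaller than the spread within IL10-/- (exact permutation p = 0.657). Its sign turned without IL10-/- replicate 2, to 0.028.

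Il6st encodes gp130, the chain shared by the LIF and oncostatin M receptors, and gave a strong signal. It read 11.54, 11.12, 11.37 and 11.49 in IL10-/- replicates 1 to 4 and 11.57, 11.61, 11.56 and 11.43 in IL10+/+ replicates 1 to 4. As for Osm, 3 IL10+/+ arrays lay above every IL10-/- array and replicate 4 lay among them. The means were 11.38 ± 0.19 and 11.54 ± 0.08 (SD, n = 4 each). The log2 difference was -0.16 (SE 0.11, 95% interval -0.41 to 0.089), 1.12-fold lower, and it did not pass limma's test (unadjusted p = 0.183, adjusted p = 0.999) or the exact permutation test (p = 0.143). Without IL10-/- replicate 2 it was -0.075.

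The partner chains Lifr, Osmr and Il31ra gave weak signals. For comparison, 226 olfactory receptor genes, whose products serve the sense of smell, had means over the 8 arrays with a median of 5.04, a 90th percentile of 6.61 and a highest value of 8.35. Lifr at 5.64, Osmr at 5.73 and Il31ra at 6.54 lay within that range, as did Osm at 8.08 and Lif at 7.75 near its upper end, while Il6st at 11.46 lay above it. Of the olfactory receptor genes, 68 read at or above Lifr, 61 at or above Osmr, 25 at or above Il31ra, 7 at or above Lif and 2 at or above Osm. Probe sets differ in how well they bind, so this does not order the genes by abundance. Without a detection call, expression of Lifr, Osmr and Il31ra in these cells is not shown, and for these genes a difference or its lack carries little weight.

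Lifr, which confers binding of LIF, read 5.62, 5.96, 5.45 and 5.57 in IL10-/- replicates 1 to 4 and 5.66, 5.62, 5.70 and 5.58 in IL10+/+ replicates 1 to 4. The highest and the lowest value again both fell in IL10-/-. The means were 5.65 ± 0.22 and 5.64 ± 0.05 (SD, n = 4 each). The log2 difference was 0.010 (SE 0.12, 95% interval -0.25 to 0.27; exact permutation p = 0.971), and it was -0.093 without IL10-/- replicate 2 and -0.026 after quantile normalization.

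Osmr, the chain for oncostatin M and interleukin 31, read 5.73, 5.70, 5.68 and 5.67 in IL10-/- replicates 1 to 4 and 5.72, 5.48, 6.03 and 5.82 in IL10+/+ replicates 1 to 4. Here the spread lay in IL10+/+, whose arrays reached both above and below all of IL10-/-. The means were 5.70 ± 0.03 and 5.76 ± 0.23 (SD, n = 4 each). The log2 difference was -0.069 (SE 0.12, 95% interval -0.33 to 0.20; exact permutation p = 0.629), and 0.018 without IL10+/+ replicate 3.

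Il31ra, the gp130 relative that binds interleukin 31, read 6.44, 6.60, 6.46 and 6.60 in IL10-/- replicates 1 to 4 and 6.44, 6.38, 6.68 and 6.74 in IL10+/+ replicates 1 to 4. Of the IL10+/+ arrays, 2 lay above all of IL10-/- and 2 below. The means were 6.53 ± 0.08 and 6.56 ± 0.18 (SD, n = 4 each). The log2 difference was -0.035 (SE 0.11, 95% interval -0.28 to 0.21; exact permutation p = 0.714), and its sign turned without IL10+/+ replicate 3 (0.0050) or 4 (0.025).

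The intervals give the range of differences compatible with these arrays. The widest reach of any of the 6 intervals was 0.48 on the log2 scale, the lower end for Osm, which corresponds to 1.39-fold lower. For Il6st the interval ran from 1.33-fold lower to 1.06-fold higher, and for Lif from 1.27-fold lower to 1.15-fold higher. These are not limits of detection, and a test that was not passed does not show that the genotypes were alike.

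**Figure D2:**
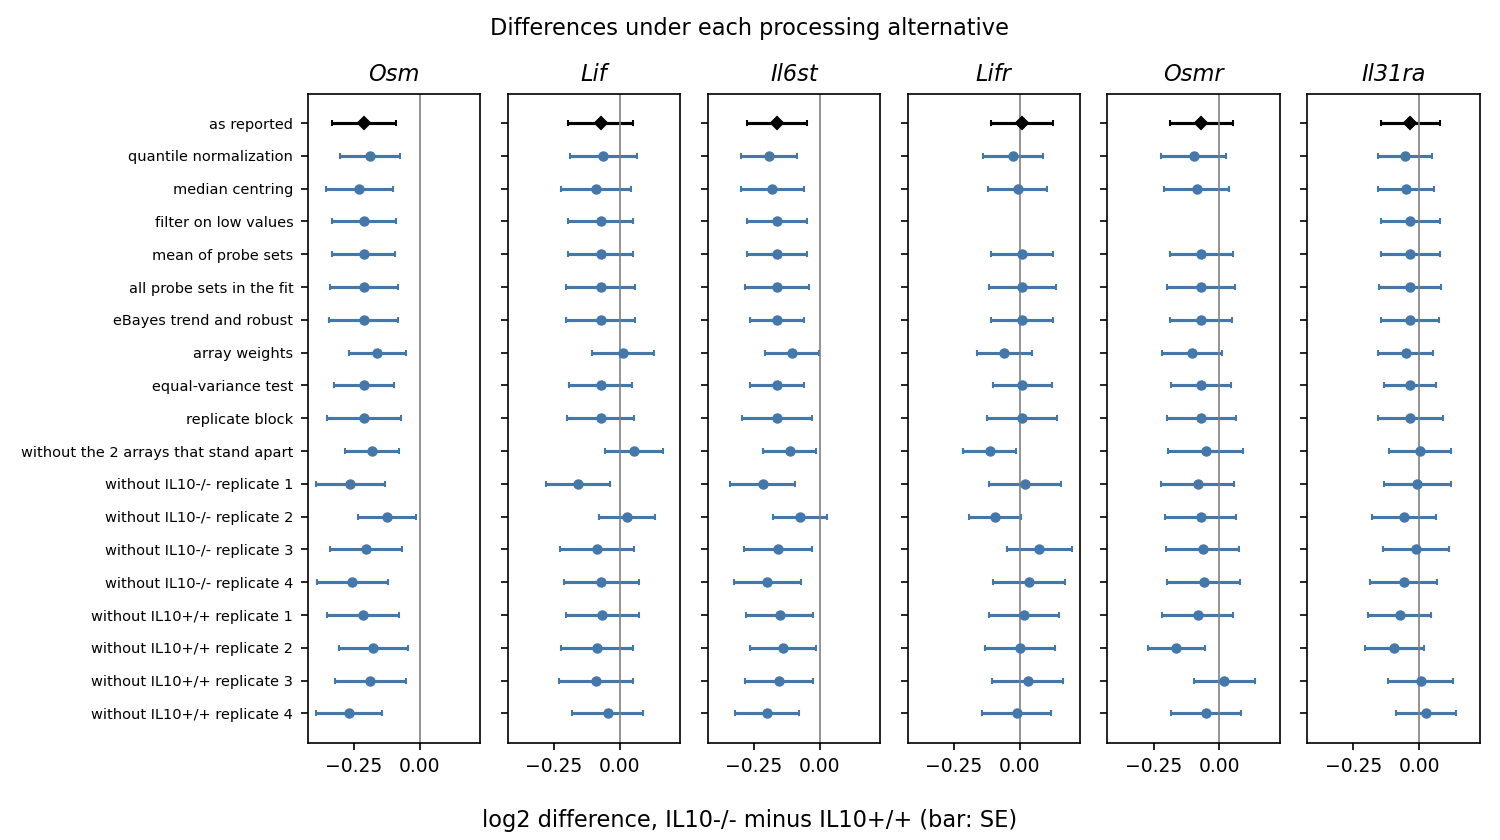
Log2 difference, IL10-/- minus IL10+/+, of each of the 6 genes as reported (black diamond) and under each processing alternative (blue), with its SE as a bar; Lifr and Osmr have no point for the filter on low values. Osm and Il6st lie below 0 in every line, whereas Lif, Lifr, Osmr and Il31ra fall on both sides of 0.

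**Figure D3:**
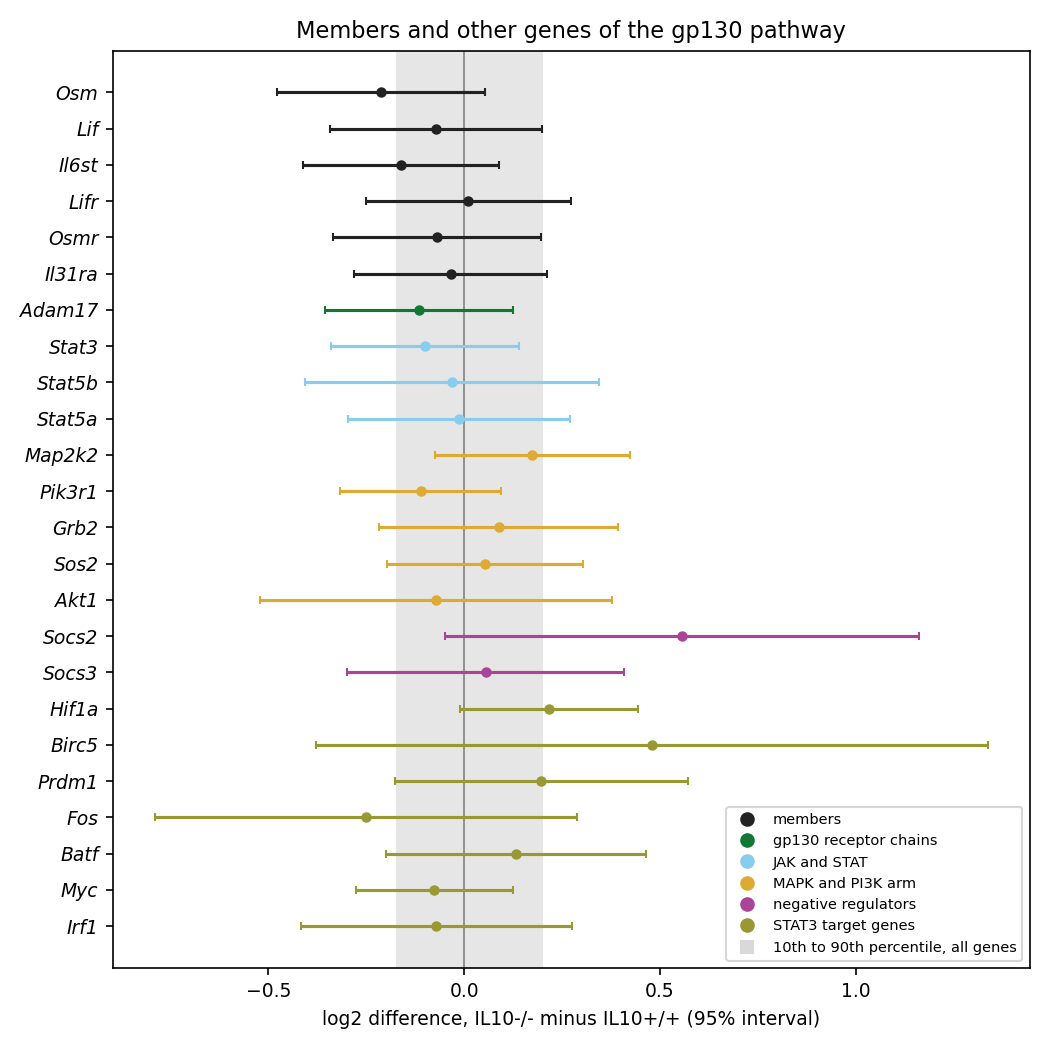
Log2 difference, IL10-/- minus IL10+/+, with its 95% interval by limma for the 6 genes (black) and for 18 other measured genes of the gp130 pathway, coloured by list; the grey band runs from the 10th to the 90th percentile of the differences of all genes (-0.17 to 0.20). The interval of every gene shown includes 0.

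Osm and Il6st moved together from pool to pool. Pearson's r was 0.98 and Spearman's rho 0.98 over the 8 arrays (exact permutation p = 4.96e-05 and 0.000397, adjusted over the 15 pairs of the 6 genes 0.000744 and 0.00595). The order of the arrays was nearly the same for both genes, with IL10+/+ replicate 2 highest and IL10-/- replicate 2 lowest. Without the 2 arrays farthest from the median of Il6st, IL10-/- replicates 2 and 3, r was 0.92. With each array measured from the mean of its group r was 0.97, but the permutation within groups then gave an adjusted p of 0.0521 (exact p = 0.00347). Within each group the array that stood apart read lowest for both genes. Without both such arrays r was 0.94 over 6 arrays (exact permutation p = 0.00278, adjusted 0.0417). From group means in those 6 arrays r was 0.88 (exact permutation p = 0.0556, adjusted 0.714). So few pairings are possible within these groups that 1 pair alone could not have passed the adjustment over 15 pairs. The part of array quality in this relation beyond these values was not tested.

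The relation has to be read against the rest of the table, in which many genes vary together across these arrays. Il6st had r of at least 0.9 with 46 of the 6985 other genes, and Osm ranked 3 among them. The genes most like Il6st were Spin1 (r = 0.99), which encodes a reader of histone methylation, and Agpat3 (r = 0.99), an enzyme of phospholipid synthesis. For Osm, 45 genes had r of at least 0.9, and the most like it were Ptprc (r = 0.98) and Il6st itself. These values of r were taken as the highest of many and are given as a description over 8 arrays.

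**Figure D4:**
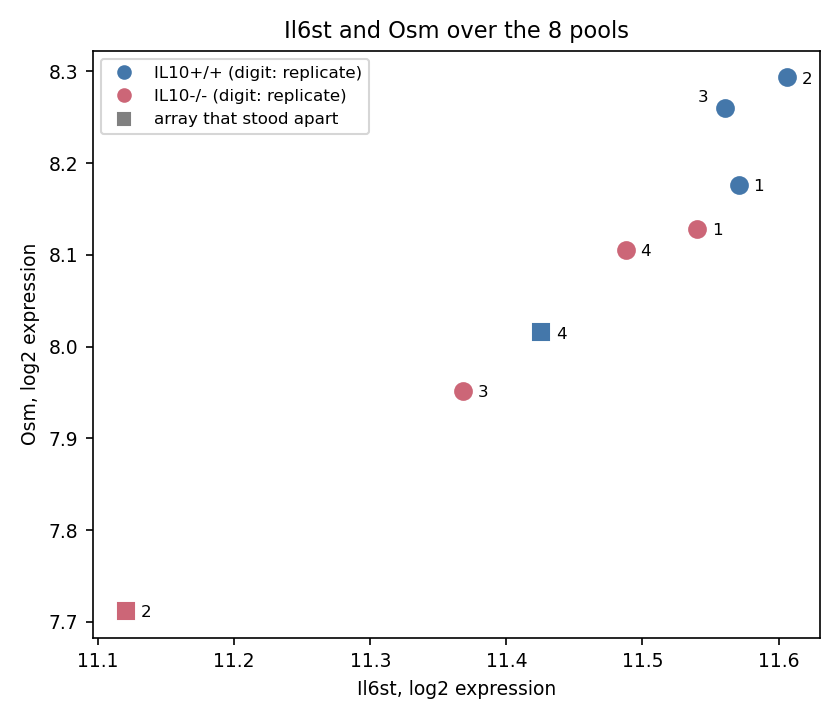
Log2 expression of Il6st (horizontal) against Osm (vertical) in the 8 pools, blue for IL10+/+ and red for IL10-/-, with the replicate number beside each point and squares for the arrays that stood apart. The points rise together from IL10-/- replicate 2 (11.12 and 7.71) to IL10+/+ replicate 2 (11.61 and 8.29).

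Of the other 14 pairs, 0 passed the adjustment over 15 pairs by either coefficient, and 1, Osmr with Il31ra, had an unadjusted exact permutation p under 0.05 by Pearson's r (0 by Spearman's rho). The ligands Osm and Lif, neighbours on the chromosome, had r = 0.59 and rho = 0.17 (exact permutation p = 0.131 and 0.703, adjusted 0.391 and 0.879), and r was -0.11 without the 2 arrays farthest from the median of Osm. The neighbours Il6st and Il31ra had r = -0.31 and rho = -0.52 (exact permutation p = 0.480 and 0.197, adjusted 0.864 and 0.879). The neighbours Osmr and Lifr had r = 0.15 and rho = 0.31 (exact permutation p = 0.657 and 0.462, adjusted 0.864 and 0.879). Osmr and Il31ra, which form the receptor of interleukin 31, had r = 0.70 and rho = 0.55 (exact permutation p = 0.0379 and 0.171, adjusted 0.284 and 0.879), and r was 0.52 without the 2 arrays farthest from the median of Osmr. Lif and Lifr, a ligand and its receptor chain, had r = -0.72 and rho = -0.36 (exact permutation p = 0.0804 and 0.389, adjusted 0.302 and 0.879). Without the 2 arrays farthest from the median of Lifr, IL10-/- replicates 2 and 3, that r was -0.18.

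IL10-/- replicate 2 read lowest for Osm, Il6st and Lif and highest for Lifr, and some markers of other cells were also highest there. Cr2, the complement receptor of B cells and follicular dendritic cells, read 7.08 there and 5.82 to 6.35 in the other 7 arrays. The means of Cr2, 6.35 in IL10-/- and 6.27 in IL10+/+, lay below the 90th percentile of the olfactory receptor genes (6.61). Signal over background could not be judged from these means. Cr2 was also among the genes most like Lifr over the 8 arrays (r = 0.97), beside Col13a1, a membrane collagen (r = 0.99). For Lifr with Cr2, rho was 0.81, and r was 0.88 without both arrays that stood apart. The myeloid lysozyme gene Lyz2 read 8.20 in that array and 6.70 to 7.27 in the others. Of the other macrophage and monocyte markers, Cd68 (8.584, with 8.57 in IL10+/+ replicate 2) and Fcgr3 (7.225, with 7.135 in IL10-/- replicate 4) were also highest there. Lyz1 was not, at 6.745, with 7.36 in IL10+/+ replicate 1. The other 3 measured B cell markers were not highest there. In that array Cd79b read 8.81, with 9.07 in IL10-/- replicate 3, Vpreb3 read 6.50, with 6.64 in IL10-/- replicate 4, and Blk read 7.89, with 8.53 in IL10+/+ replicate 2. The 4 measured of 10 B cell markers averaged 7.57 in IL10-/- replicate 2 (7.08 to 7.42 elsewhere), but without Cr2 the average of 7.73 lay within the range of the others (7.38 to 7.84). The 4 of 12 macrophage and monocyte markers averaged 7.69 there (7.01 to 7.36 elsewhere), and 7.52 without Lyz2 (7.11 to 7.41 elsewhere). The 4 of 10 neutrophil markers averaged 6.41 there, with 6.44 in IL10+/+ replicate 2. Batf3, a dendritic cell marker, read 7.84 there, with 8.16 in IL10-/- replicate 3. IL10+/+ replicate 4, the other array that stood apart, averaged 7.08 for the B cell markers, the lowest of the 8 arrays. Its macrophage and monocyte average of 7.26 was the lowest in IL10+/+, but without Lyz2 it was 7.32, with 7.30 in IL10+/+ replicate 3.

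The average of the T cell markers, a list that included the leukocyte gene Ptprc, was lowest in IL10-/- replicate 2. The markers did not all go the same way. Ptprc, Cd28 and Zap70 were each lowest there, but Themis was highest there, at 9.715 (9.233 to 9.693 in the others). The 4 of 12 averaged 10.32 there (10.48 to 10.62 elsewhere), and 9.60 without Ptprc (9.75 to 9.94 elsewhere). Ptprc, the gene most like Osm, read 12.48 in that array and 12.60 to 12.74 in the others. The part of the mixture of cells in the values of Osm, Il6st, Lif and Lifr, and in the relation of Osm with Il6st, was not tested.

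Stromal cells are a known site of Lifr and Osmr expression. The 7 measured of 12 fibroblast and stroma markers averaged 6.07 to 6.30 in IL10-/- and 6.19 to 6.31 in IL10+/+, and all 7 had negative differences, none past limma's threshold, with a median of -0.085. These averages lay below the 90th percentile of the olfactory receptor genes (6.61), so signal over background could not be judged here either. In each group the highest average fell in the array that stood apart. Dcn, the proteoglycan decorin, read 5.05 ± 0.15 and 5.15 ± 0.12, and Col3a1, a fibrillar collagen, 6.70 ± 0.06 and 6.78 ± 0.08 (SD, n = 4 each). Pecam1, the 1 measured of 10 endothelium markers, differed by -0.097 (SE 0.11). None of the 4 measured neutrophil markers (of 10) passed either, with Cxcr2, a chemokine receptor, at -0.19 and a median of -0.10. The granule enzyme genes Mpo and Elane and the surface antigen gene Ly6g differed by -0.083, 0.078 and -0.13. The 4 macrophage and monocyte markers had a median of 0.023, with Lyz1 at -0.42 (SE 0.21), Lyz2 at 0.15, Fcgr3 at 0.081 and Cd68 at -0.035. The 4 B cell markers were all positive with a median of 0.19, led by Cd79b, a chain of the B cell receptor, at 0.27 (SE 0.14), then Vpreb3 at 0.24, Blk at 0.14 and Cr2 at 0.076, and Batf3, the 1 measured of 8 dendritic cell markers, differed by 0.28 (SE 0.13). None of these passed limma's test.

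The rest of the pathway was measured in part. Of the 12 listed ligands of the family only Osm and Lif, and of the 11 listed receptor chains and shedding proteases only Il6st, Lifr, Osmr, Il31ra and Adam17, were in the table. Il6, Il6ra, Il11 and Il27ra were not analysed here. Adam17, the protease that sheds the interleukin 6 receptor, read 9.70 ± 0.17 and 9.82 ± 0.08 (SD, n = 4 each), a difference of -0.12 (SE 0.11). Of the 7 listed Janus kinases and STATs, 3 were measured. Stat3, the main transcription factor downstream of gp130, read 9.97, 9.78, 9.91 and 9.87 in IL10-/- replicates 1 to 4 and 10.06, 10.11, 10.02 and 9.74 in IL10+/+ replicates 1 to 4. The groups overlapped, and the difference was -0.10 (SE 0.11; exact permutation p = 0.314). Stat5a and Stat5b differed by -0.013 (SE 0.13) and -0.031 (SE 0.17).

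The other pathway genes were split in direction. Across the lists, 18 pathway genes other than the 6 were measured, of which 9 were higher, 9 were lower and 0 passed limma's test, with a median of 0.020. At an unadjusted p under 0.05 limma also counted 0 of them, and for 0 of them the groups did not overlap. Socs3, the feedback inhibitor that binds gp130, read 8.17 ± 0.27 and 8.11 ± 0.24 (SD, n = 4 each), a difference of 0.055 (SE 0.16). Socs2, an inhibitor of growth hormone and STAT5 signalling, differed by 0.56 (SE 0.27; exact permutation p = 0.257), with 7.64 and 7.31 in IL10+/+ replicates 3 and 4 and 8.35 to 9.03 in the other 6 arrays. Of the 5 measured of 21 genes of the MAPK and PI3K arm, Map2k2, a kinase of the MAPK cascade, differed by 0.17 (SE 0.11) and Pik3r1, the regulatory subunit of PI3K, by -0.11 (SE 0.093). Of the 9 measured of 29 STAT3 target genes, Osmr and Socs3 included, 5 were higher and 4 lower, with a median of 0.055. Hif1a, the hypoxia transcription factor, differed by 0.22 (SE 0.10; exact permutation p = 0.0571) and Birc5, the mitotic survival gene survivin, by 0.48 (SE 0.39). None of these passed limma's test.

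The genes that flank the 3 neighbour pairs showed no difference past limma's threshold. Castor1, a sensor of arginine beside Osm, differed by 0.15 (SE 0.16), and Hormad2, a meiotic gene beside Lif, by -0.00070 (SE 0.11). Ankrd55, beside Il6st, differed by -0.077 (SE 0.10), and Ddx4, a germ cell helicase beside Il31ra, by -0.081 (SE 0.11). Rictor, a subunit of the mTORC2 kinase complex beside Osmr, differed by -0.038 (SE 0.12), and Egflam, an extracellular matrix protein gene beside Lifr, by 0.056 (SE 0.11). For Osmr, Il31ra and Lif, the genes of most similar pattern by Pearson's r over the 8 arrays were Klhl33 and Dhrs11 (r = 0.95 each with Osmr), Slc40a1 and Ppfia4 (0.97 each with Il31ra), and Unk and Mideas (0.92 each with Lif). Of these, Slc40a1 encodes the iron exporter ferroportin.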

How the data were processed

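The deposited values were log2 expression per probe set, a scale read here from their range. Per the labels' protocols and the series' design text, the authors amplified the RNA (Ovation PicoSL), corrected the arrays for background by RMA and for GC content, and averaged the probes in Partek Genomics Suite. Affymetrix Expression Console stands in the submitters' processing notes as well. Program versions and the probe sets' genome build were not given in the sources used here.

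Of 16378 probe sets, 7358 carried 1 gene in the platform annotation, 456 several and 8564 none. Entrez identifiers brought 7310 symbols up to date, and the probe set of highest mean was kept per gene, leaving 6986 genes, nearly all (99.6% of those placed) from chromosomes 1 and 10 to 15.

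Groups were compared with limma 3.58.1 (lmFit, eBayes) in R 4.3.3, after a test on simulated data, with two-sided Benjamini-Hochberg adjusted p-values over 6986 genes. Permutation tests were exact and two-sided, over 70 assignments of arrays or 40320 pairings. Fewer pairings were used where arrays were left out or pairings were kept within groups. Precision is limited by the number of arrays, 4 a group.

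The rule for named genes took the 6 genes, Il10, genes past the threshold, all measured ligands, receptor chains, STATs and neighbours, the 2 most similar genes for each of the 6, and from each list the 2 of smallest p (all in lists of at most 4). Genes and lists were chosen with earlier results of these data known. Alternatives changed the normalization, filter, probe sets, moderation, weights, test, replicate block and arrays used.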

Additional observations from a re-analysis of the deposited data

How the results depend on the processing

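None of the 6 genes passed limma's threshold under any of the 18 alternatives, or the 17 for Lifr and Osmr, which the filter on low values removed. The smallest adjusted p was 0.790, for Osm without IL10+/+ replicate 4. Osm and Il6st kept a negative difference in all of their alternatives, with -0.27 to -0.12 and -0.22 to -0.075 when single arrays were left out. For the other genes the sign was not settled. Leaving out single arrays gave -0.16 to 0.028 for Lif, -0.093 to 0.075 for Lifr, -0.16 to 0.018 for Osmr and -0.095 to 0.025 for Il31ra. The sign of Lifr also turned with quantile normalization (-0.026), median centring (-0.0071), array weights (-0.057) and without both arrays that stood apart (-0.11). That of Lif turned with array weights (0.012) and without both those arrays (0.055), and that of Il31ra without them (0.0016). The causes were not tested.

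The count of 2 genes past the threshold fell to 1 with median centring, all probe sets in the fit, array weights or the equal-variance test. It also fell to 1 with the replicate block and without both arrays that stood apart. It rose to 3 with trended and robust moderation in eBayes, where Hesx1 was added. The count stayed at 2 with quantile normalization, the filter on low values and the mean of probe sets. It ran from 1 to 4 when single arrays were left out, with 4 without IL10-/- replicate 3. The replicate block (replicate numbers 1 to 4 in both groups) left the adjusted p of each of the 6 genes above 0.05 (difference of -0.21 for Osm and -0.16 for Il6st), and for these 6 genes it changed no call. The labels do not say what the replicate number stands for. The correlations of the deviations of same-numbered arrays from the group means were 0.053, -0.32, 0.027 and -0.19. Whether such arrays shared a batch was not tested beyond these values.

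Of the relations between the genes, that of Il6st with Osm stayed past the threshold with single arrays left out (r from 0.95 to 0.99), with quantile normalization (0.97) and with median centring (0.98), alternatives chosen after seeing the data. As deviations from the group means, 0 of 15 pairs passed, and 1 had an unadjusted exact permutation p under 0.05 (r = 0.97 for this pair, adjusted p = 0.0521). Without a detection call, signal over background could not be judged for the weak probe sets.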
